A study of Mus musculus with 12 samples.

Results

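The cholesterol genes described here were 28 mouse genes of cholesterol synthesis, cholesterol uptake and transport, and control of SREBP, the transcription factor that drives both. They were picked by gene symbol from a list of pathway members, drawn up with earlier results of these data known. All 28 symbols were found among the 53801 gene records of the deposited table, and all 28 passed the filter on low values. The list holds 5 regulators of SREBP, 7 enzymes from acetyl-CoA to farnesyl diphosphate, 11 enzymes from squalene to cholesterol, and 5 genes of uptake control, transport and esterification.

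The genes were measured by RNA-seq in RAW264.7, a mouse macrophage-like line that responds strongly to lipopolysaccharide (LPS), a bacterial cell wall component. Cells carried either a small interfering RNA (siRNA) against Synbindin (silenced cells) or a control siRNA (control cells). Synbindin is the product of Trappc4, a subunit of the TRAPP complexes that act in transport between the endoplasmic reticulum and the Golgi. The 4 groups were silenced cells after 4 h with LPS at 100 ng/ml, control cells after the same LPS, silenced cells without LPS and control cells without LPS, with 3 libraries each. All cells were of passages 3 to 5 and all had received an siRNA. The labels do not say whether the 3 libraries of a group are separate transfections; p-values therefore speak only to the scatter among these libraries, and that scatter could be technical.

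Cholesterol synthesis is controlled by feedback from the membrane of the endoplasmic reticulum. When sterol there is low, the escort protein SCAP carries SREBP in transport vesicles to the Golgi, where proteases release its transcription factor domain. When sterol is high, INSIG proteins hold SCAP and SREBP back. In macrophages sterol synthesis, uptake and export are all linked to inflammatory state, and oxysterols made after LPS are known to restrain SREBP.

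Released SREBP binds sterol regulatory elements, usually beside a CCAAT box bound by NF-Y, so the stretch before the transcription start was read for member genes. RefSeq promoter windows on GRCm38.p6 were matched for 23 of the 28 genes, in 31 windows; none was matched for Stard4, Npc1, Fdps, Sqle and Fdft1. In the 250 bases before the start, the letters CCAAT were found on either strand for 21 of the 23 genes (91.3%), against 37.5% of all 27025 genes with a window and 41.0% of the 8352 tested genes with a window. A gene counted if any of its windows held a match. By window, CCAAT was found in 22 of 31, against 33.8% of all 32851 windows. Mvk held 5 matches, and Hmgcs1, Hsd17b7, Insig2, Msmo1 and Mylip held 3 each. The sterol regulatory element letters TCACNCCAC, searched on both strands, were found in Hmgcs1 alone, 137 to 129 bases before its start, against 1.22% of all genes. The E-box letters CACGTG were found for 5 of the 23 genes (Dhcr7, Hsd17b7, Insig1, Sc5d and Scap), or 21.7%, against 6.86% of all genes and 10.4% of tested genes. By window, they were found in 5 of 31, against 6.02% of all windows. No match of 1 motif overlapped a match of another. A match is only a run of letters, and no binding was measured. Only these exact letters were searched, so a missing match does not show that a gene lacks such an element.

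Windows of 4 genes are printed, 5′ to 3′ on the gene's own strand and ending at the base before the start, because their genes span the responses to LPS described further on; no relation between motif number and response was tested. As deposited, Hmgcs1 and Srebf1 were called lower in silenced and in control cells, Mvd was called lower in silenced cells and not in control cells, and no change was called for Mvk in either. Under other scalings of the libraries the Hmgcs1 call in control cells was lost (median-ratio scaling, limma adjusted p = 0.111) and Mvk was called higher in control cells (quantile normalization, 0.39 on the log2 scale, limma adjusted p = 0.0410). Capitals mark CCAAT, its reverse complement ATTGG, and in Hmgcs1 the sterol regulatory element letters. The Hmgcs1 stretch is chr13:119690101-119690350 on the plus strand and that of Mvk chr5:114444061-114444268 on the plus strand. That of Mvd is chr8:122443423-122443672 and that of Srebf1 chr11:60210472-60210721, both on the minus strand. Srebf1 has other starts, whose windows are not printed. The stretch chr11:60220628-60220877 holds no CCAAT match, and chr11:60222582-60222831 does hold a match. FPKM was given for the whole gene, not by start.
Hmgcs1: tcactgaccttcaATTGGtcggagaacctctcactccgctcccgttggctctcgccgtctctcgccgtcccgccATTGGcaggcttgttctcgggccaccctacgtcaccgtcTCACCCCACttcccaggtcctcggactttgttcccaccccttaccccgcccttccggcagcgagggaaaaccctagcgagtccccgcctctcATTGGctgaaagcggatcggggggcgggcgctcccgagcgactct
Srebf1: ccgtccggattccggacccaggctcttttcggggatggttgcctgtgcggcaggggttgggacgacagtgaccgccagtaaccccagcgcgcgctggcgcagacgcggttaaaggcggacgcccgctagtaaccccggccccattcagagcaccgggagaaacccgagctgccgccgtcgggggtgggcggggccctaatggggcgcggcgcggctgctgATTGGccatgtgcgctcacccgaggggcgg
Mvd: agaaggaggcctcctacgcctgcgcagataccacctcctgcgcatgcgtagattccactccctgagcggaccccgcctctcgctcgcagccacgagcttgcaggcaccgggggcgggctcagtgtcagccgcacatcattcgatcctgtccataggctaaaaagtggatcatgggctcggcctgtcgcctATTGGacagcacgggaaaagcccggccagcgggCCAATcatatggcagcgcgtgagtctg
Mvk: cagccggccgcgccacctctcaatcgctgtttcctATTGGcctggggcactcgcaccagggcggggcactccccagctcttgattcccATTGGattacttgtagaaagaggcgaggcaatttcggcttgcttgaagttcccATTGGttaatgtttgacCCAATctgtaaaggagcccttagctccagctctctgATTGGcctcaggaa

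**Figure D1:**
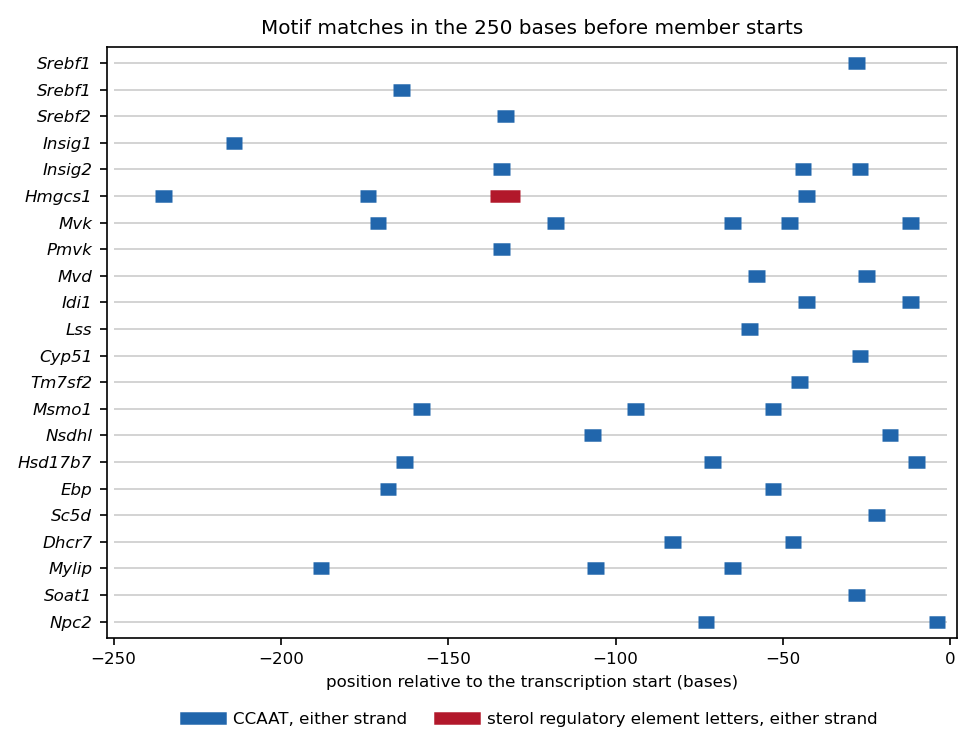
Positions of motif matches in the 250 bases before the transcription start, in bases relative to the start, for member genes with at least 1 match. Each line is 1 promoter window and blue bars are CCAAT on either strand. The red bar is the match to the sterol regulatory element letters in Hmgcs1, where it lies between CCAAT matches.

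Trappc4 checked the silencing. It read 4.35, 7.17 and 6.15 FPKM (fragments per kilobase of transcript, relative to the library's mapped fragments) in silenced and 14.1, 13.1 and 12.5 FPKM in control libraries without LPS, so 44.5% of the control mean remained. After LPS it read 5.86, 7.71 and 8.26 FPKM in silenced and 13.8, 15.7 and 9.45 FPKM in control libraries, so 56.1% remained. Silenced libraries lay below control libraries in both settings, with an exact two-sided permutation p of 0.1, the smallest that 3 against 3 allows. Trappc4 overlaps Rps25 on the opposite strand, and the strand setting of the counting is not given. Reads of this partner cannot be told apart. All 7 macrophage markers measured were present in every library. Their summed level was 1975 to 2704 FPKM in silenced and 1465 to 1866 FPKM in control libraries after LPS, and 2123 to 2600 FPKM in silenced and 1551 to 1685 FPKM in control libraries without LPS. The sum differed through Lyz2 and Cd14 in the main, and its part in the results was not tested. Markers of B cells, T and NK cells, fibroblasts and epithelium summed to at most 0.238 FPKM per cell type in any library. No counts were in the files. A rough estimate from the smallest steps in FPKM put depth at 7.33 to 16.0 M (mega) fragments in silenced and 7.85 to 11.6 M in control libraries without LPS, and at 13.3 to 17.6 M in silenced and 10.1 to 13.0 M in control libraries after LPS. These estimates averaged higher in silenced libraries, but at most 9.99% of low values in a library lay within 1% of a whole step, so they are rough.

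On the FPKM scale the genes differed widely in level among themselves. Without LPS the lowest mean was that of Tm7sf2, a sterol C14 reductase, at 4.38 ± 0.434 FPKM in silenced and 4.01 ± 0.486 FPKM in control cells (mean ± SD, n = 3 each, as in all means given here). The highest were Hmgcs1, the cytosolic HMG-CoA synthase, at 39.6 ± 6.15 FPKM in silenced cells, and Srebf2, which encodes the SREBP isoform most tied to cholesterol synthesis, at 37.3 ± 2.95 FPKM in control cells. After LPS Dhcr7 was lowest and Npc2 highest in both kinds of cell. The median coefficient of variation over the 28 genes was 10.9% in silenced and 13.9% in control cells after LPS, and 8.77% in silenced and 9.81% in control cells without LPS. The widest spread was in Sc5d in control cells after LPS, where library 2 read 2.81 FPKM against 6.14 and 6.39 FPKM in the others.

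**Figure D2:**
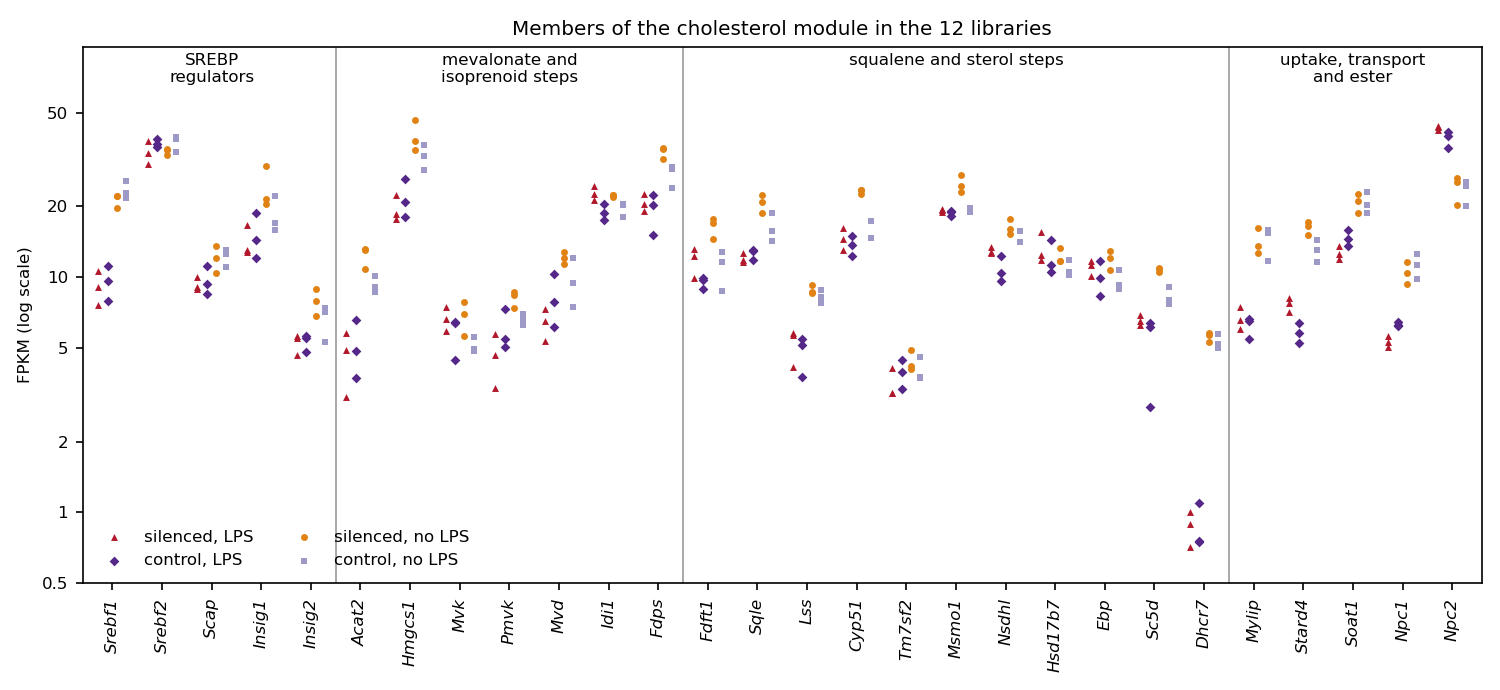
FPKM (log scale) of the 28 cholesterol genes in each of the 12 libraries, ordered by role. Each point is 1 library, and the groups stand left to right as silenced with LPS, control with LPS, silenced without LPS and control without LPS. Dhcr7 drops to about 1 FPKM in all 6 LPS libraries, and Npc2 is the gene that stands higher in them.

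Silencing was examined first in cells without LPS. The steps of the pathway lay above control levels on average, but no single gene passed the test. Of the 28 genes, 0 were called at an adjusted p under 0.05 (limma on log2(FPKM + 1), Benjamini-Hochberg adjustment over 13078 tested genes), where 0.214% of all tested genes were called. At an unadjusted p under 0.05, 8 of 28 genes were higher and 0 lower, against 6.57% of all genes higher. Fold changes were positive for 23 of 28 genes, against 51.5% of all genes, and the median log2 fold change was 0.25 over the 28 genes and 0.01 over all genes. In 12 of 28 genes every silenced library lay above every control library, against 9.86% of all genes, and the reverse held for 0 genes. The 28 genes were read in the same libraries and can shift together. These counts, and later counts over genes, are therefore not counts of independent observations.

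The mevalonate segment, which turns acetyl-CoA into isoprenoid units, had a positive fold change in 7 of 7 genes, from 0.17 for Idi1 to 0.37 for Acat2 on the log2 scale, and in 5 of them the groups did not overlap. Acat2, the cytosolic thiolase at the entry to the pathway, read 13.2, 13 and 10.8 FPKM in silenced and 10.1, 9.11 and 8.64 FPKM in control libraries. Reads of Acat2 may be shared with its near-identical neighbour Acat3, so its level is uncertain. Fdps, which makes farnesyl diphosphate, read 35, 35.5 and 31.8 FPKM in silenced and 29.4, 28.7 and 23.8 FPKM in control libraries. For both genes the silenced libraries all lay higher, and limma's adjusted p was 0.488 for Acat2 and 0.398 for Fdps, which misses the threshold. Mvk, the kinase that phosphorylates mevalonate, and Pmvk, the kinase after it, had log2 fold changes of 0.34 ± 0.15 and 0.27 ± 0.16 (± SE).

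The sterol segment also had a positive fold change in 11 of 11 genes, and it held the smallest p-values. Cyp51, which removes the C14 methyl group of lanosterol, read 22.6, 23.5 and 23.4 FPKM in silenced and 14.6, 14.7 and 17.3 FPKM in control libraries. The silenced libraries were tightly grouped and all above control. Its log2 fold change was 0.55 ± 0.10 (95% interval 0.33 to 0.78), 1.49 times the control mean, with limma's adjusted p at 0.0607. Without control library 3, the highest of its group, the log2 fold change was 0.63 and limma's adjusted p 0.0490. With all 12 libraries and the replicate number as a block the adjusted p by limma was 0.0341, although the numbers do not pair the samples, so the call turns on these choices. Fdft1, the squalene synthase that commits farnesyl units to sterol, read 14.5, 17.6 and 17 FPKM in silenced and 11.5, 8.73 and 12.7 FPKM in control libraries, with no overlap. Its log2 fold change was 0.54 ± 0.14 and limma's adjusted p 0.167. Msmo1, the C4 methylsterol oxidase, read 23, 24.4 and 27.3 FPKM in silenced and 19.6, 19.6 and 18.9 FPKM in control libraries. The groups were again apart, with a log2 fold change of 0.34 ± 0.07 and a limma adjusted p of 0.103. Sqle, the squalene epoxidase that is a rate-limiting step of the pathway, read 20.8, 18.7 and 22.3 FPKM in silenced and 14.2, 15.7 and 18.7 FPKM in control libraries. The lowest silenced library was just above the highest control library, the log2 fold change was 0.34 ± 0.10 and limma's adjusted p was 0.247. The least shifted genes of the segment were Dhcr7, Lss, Nsdhl and Tm7sf2, at 0.07 to 0.10 on the log2 scale. Fdft1 overlaps Ctsb and Cyp51 overlaps Akap9 on the opposite strand, and the strand setting of the counting is not given in the sources used here, so reads of such partners cannot be told apart.

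The regulators and the transport genes were mixed. Insig1 and Insig2, which encode the retention proteins, had log2 fold changes of 0.36 ± 0.19 and 0.23 ± 0.13, while those of Srebf1, Srebf2 and Scap were -0.12 ± 0.13, -0.12 ± 0.09 and -0.02 ± 0.12. None of the 5 was called and in each the silenced and control libraries overlapped. Among transport genes Stard4, a cytosolic sterol carrier, read 16.5, 15.1 and 17.2 FPKM in silenced and 13.1, 11.6 and 14.3 FPKM in control libraries. All silenced libraries were above control, at a log2 fold change of 0.30 ± 0.10 and a limma adjusted p of 0.278. Mylip, the ubiquitin ligase that marks lipoprotein receptors for degradation, Soat1, which esterifies cholesterol, and Npc1 and Npc2, which move cholesterol out of lysosomes, lay between -0.09 and 0.04.

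**Figure D3:**
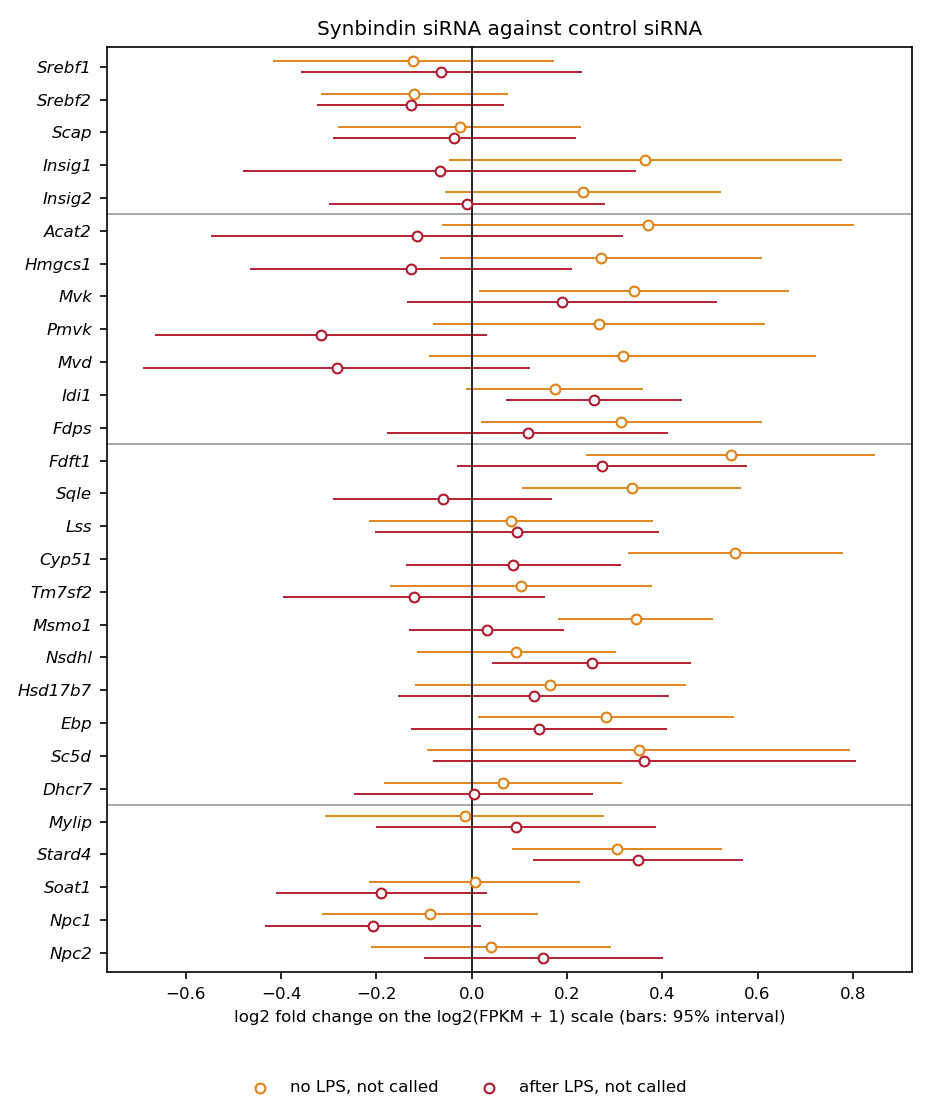
Log2 fold change with its 95% interval, silenced against control cells, for each of the 28 genes without LPS (orange) and after LPS (red). All markers are open because 0 of 28 genes were called in either comparison. Without LPS all 18 synthesis enzymes among the 28 genes lie right of 0.

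After LPS the silencing differences of the 28 genes lay on both sides of 0. Again 0 of 28 genes were called by limma at an adjusted p under 0.05, where 0.719% of all tested genes were. Fold changes were positive in 15 genes and negative in 13, with a median of 0.02 over the 28 genes and -0.03 over all genes. At an unadjusted p under 0.05, 3 genes were higher (against 4.72% of all genes) and 0 lower. In 5 genes every silenced library was above every control library, against 7.62% of all genes, and in 2 genes every silenced library was below, against 11.3% of all genes.

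The genes with the smallest p after LPS were a different mix of steps. Stard4 read 7.09, 8.16 and 7.73 FPKM in silenced and 5.26, 5.78 and 6.39 FPKM in control libraries. It was higher in all silenced libraries here too, at a log2 fold change of 0.35 ± 0.10 and a limma adjusted p of 0.154. Idi1, the isopentenyl diphosphate isomerase, read 21.2, 22.5 and 24.5 FPKM in silenced and 18.8, 20.4 and 17.4 FPKM in control libraries. The groups did not overlap, with a log2 fold change of 0.26 ± 0.08 and a limma adjusted p of 0.217. Nsdhl, a dehydrogenase of C4 demethylation, read 13.4, 12.8 and 12.7 FPKM in silenced and 9.66, 12.2 and 10.4 FPKM in control libraries. The groups were apart by a small margin, with a log2 fold change of 0.25 ± 0.10 and a limma adjusted p of 0.283. Npc1 read 5.63, 5.28 and 5.03 FPKM in silenced and 6.23, 6.17 and 6.46 FPKM in control libraries. All silenced libraries were below control, with a log2 fold change of -0.21 ± 0.10 and a limma adjusted p of 0.429. The 4 genes with the smallest p without LPS had smaller differences after it. They were picked by their result without LPS, so smaller differences elsewhere could follow from that choice alone. Cyp51 read 14.5, 13 and 16.2 FPKM in silenced and 13.7, 12.2 and 14.9 FPKM in control libraries, with overlap, and its log2 fold change was 0.09 ± 0.10 (95% interval -0.14 to 0.31). The log2 fold changes of Msmo1, Sqle and Fdft1 after LPS were 0.03 ± 0.07, -0.06 ± 0.10 and 0.27 ± 0.14.

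As deposited, LPS lowered many of the 28 genes in both kinds of cell. In control cells the count came near that of all genes under another scaling, given below. In silenced cells 21 of 28 genes fell (35.5% of all tested genes fell) and 1 rose (13.0% of all tested genes rose), with 6 not called. In control cells 14 of 28 genes fell (32.9% of all tested genes fell) and 1 rose (15.3% of all tested genes rose), with 13 not called. The median log2 fold change over the 28 genes was -0.66 in silenced and -0.30 in control cells, against -0.21 in silenced and -0.17 in control cells over all genes. In both kinds of cell 14 genes fell and Npc2 rose. The call was made in silenced cells and not in control cells for 7 genes (Insig1, Insig2, Pmvk, Mvd, Fdft1, Cyp51 and Msmo1) and in neither for Srebf2, Mvk, Idi1, Tm7sf2, Hsd17b7 and Ebp. A lower level in every cell and a smaller fraction of cells that express the gene cannot be told apart in such bulk samples.

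The share of genes that fell depends on how libraries are scaled. Under a median-ratio scaling the median over all genes moved to 0.02 in silenced and 0.02 in control cells, and the share of all calls that were higher was 51.3% in silenced and 53.0% in control cells, against 26.8% in silenced and 31.7% in control cells as deposited. Under that scaling 14 of 28 genes fell and 3 rose (Srebf2, Idi1 and Npc2) in silenced cells, where 21.6% of all tested genes fell and 22.7% rose. In control cells 8 of 28 fell and 2 rose (Srebf2 and Npc2), where 21.8% of all tested genes fell and 24.6% rose, so the count that fell in control cells is near that of all genes. The median over the 28 genes was then -0.40 in silenced and -0.08 in control cells. The calls lost under it were those of Scap, Insig1, Insig2, Fdft1, Msmo1, Nsdhl and Sc5d in silenced cells and of Scap, Hmgcs1, Fdps, Sqle, Sc5d and Soat1 in control cells. Quantile normalization lost 5 of these in silenced cells (Scap, Insig2, Fdft1, Nsdhl and Sc5d) and 3 in control cells (Scap, Sqle and Sc5d), and added a call for Mvk, higher in control cells. No called member changed sign under any of the 3 scalings tried. Calls that held as deposited and under all 3 scalings were 15 in silenced and 9 in control cells, among them Dhcr7, Srebf1, Mylip, Stard4, Acat2, Npc1, Lss and Npc2 in both.

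**Figure D4:**
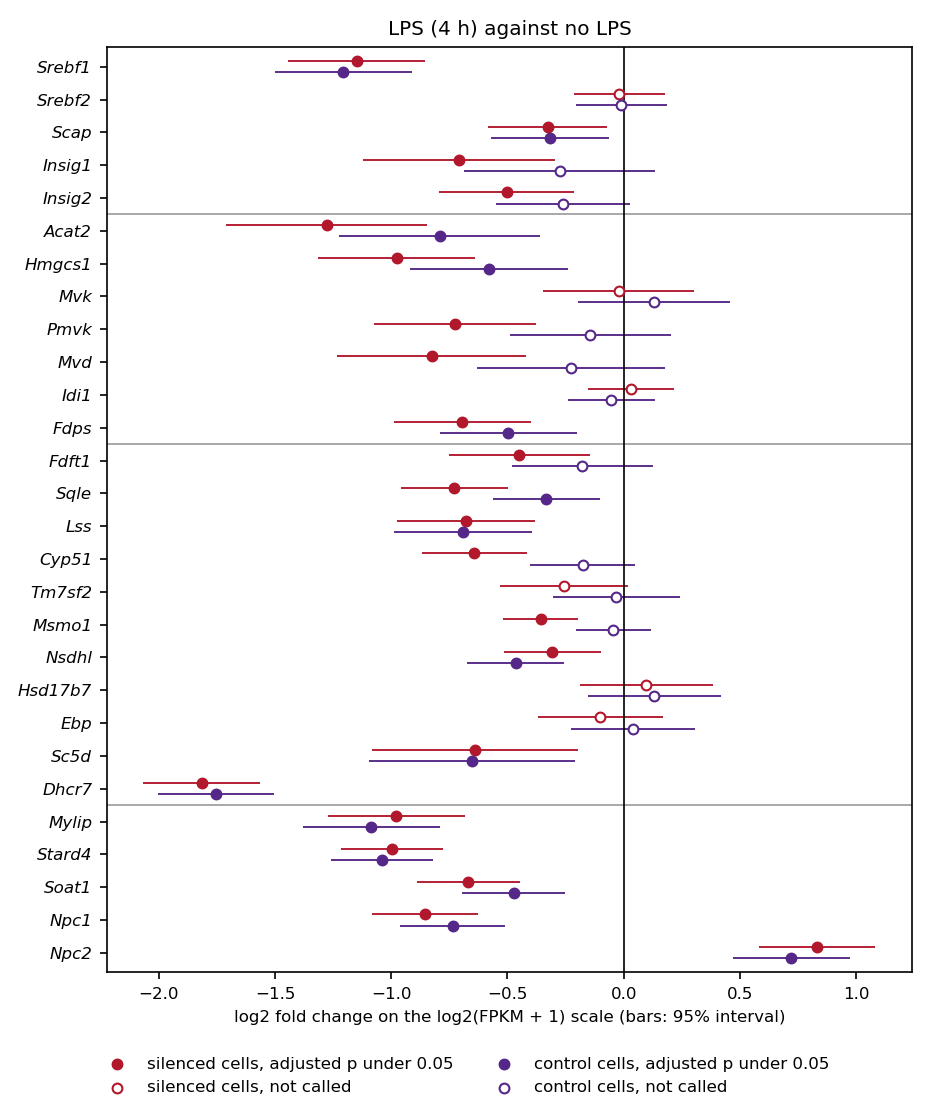
Log2 fold change with its 95% interval, LPS against no LPS, in silenced cells (red) and control cells (purple) for each of the 28 genes. Filled markers are called at an adjusted p under 0.05; Npc2 is the gene called right of 0, and Dhcr7 lies farthest left in both.

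Among the regulators, 4 of 5 fell in silenced cells (35.5% of all tested genes) and 2 of 5 in control cells (32.9%). The count in control cells is near that share. Srebf1, which encodes the SREBP isoform most tied to fatty acid synthesis, read 9.07, 10.6 and 7.64 FPKM with LPS and 19.7, 22 and 22.2 FPKM without in silenced libraries. In control libraries it read 11.2, 9.64 and 7.91 FPKM with LPS and 25.6, 22.7 and 21.6 FPKM without. The LPS libraries were far below, with no overlap, at 42.8% of the level without LPS in silenced and 41.1% in control cells. Its log2 fold change was -1.15 ± 0.13 in silenced (limma adjusted p = 3.19e-05) and -1.21 ± 0.13 in control cells (limma adjusted p = 2.33e-05). Srebf2, in contrast, as deposited had log2 fold changes of -0.02 ± 0.09 in silenced and -0.01 ± 0.09 in control cells, with 95% intervals of -0.21 to 0.18 and -0.21 to 0.19. With median-ratio scaling Srebf2 was called higher with LPS in both kinds of cell. Insig1 fell by 0.71 and Insig2 by 0.50 on the log2 scale in silenced cells (limma adjusted p = 0.00853 and 0.00797), and had -0.28 ± 0.19 and -0.26 ± 0.13 in control cells, not called. Under median-ratio scaling the calls in silenced cells were lost, at -0.44 for Insig1 (limma adjusted p = 0.0963) and -0.26 for Insig2 (limma adjusted p = 0.124). Quantile normalization also lost that of Insig2 (-0.23, limma adjusted p = 0.167). Scap was called lower in both, at -0.33 ± 0.12 in silenced and -0.32 ± 0.12 in control cells, by a narrow margin. Under median-ratio scaling it had -0.07 in silenced (limma adjusted p = 0.635) and -0.10 in control cells (limma adjusted p = 0.483). Its call was lost when any of 4 libraries was left out in silenced cells (silenced libraries 2 and 3 without LPS and 2 and 3 with LPS; limma adjusted p 0.0787 to 0.137). In control cells it was lost without any of 6 libraries (control 1 and 2 and silenced 3 without LPS, control 1 and 3 and silenced 2 with LPS; limma adjusted p 0.0526 to 0.146).

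Of the mevalonate genes, 5 of 7 fell in silenced cells (35.5% of all tested genes) and 3 of 7 in control cells (32.9%). The count in control cells is near that share. Acat2 read 3.09, 5.8 and 4.92 FPKM with LPS and 13.2, 13 and 10.8 FPKM without in silenced libraries. In control libraries it read 6.54, 3.74 and 4.86 FPKM with LPS and 10.1, 9.11 and 8.64 FPKM without. All LPS libraries were below those without, and the log2 fold change was -1.28 ± 0.20 in silenced (limma adjusted p = 0.000245) and -0.79 ± 0.20 in control cells (limma adjusted p = 0.00602). Hmgcs1, whose promoter carries the sterol regulatory element letters, fell to 19.6 ± 2.47 FPKM with LPS, against 39.6 ± 6.15 FPKM without, in silenced cells. In control cells Hmgcs1 fell to 21.6 ± 4.13 FPKM with LPS, against 32.5 ± 4.04 FPKM without. Fdps fell by 0.69 in silenced and by 0.50 in control cells on the log2 scale. In control cells median-ratio scaling lost both calls, at -0.35 for Hmgcs1 and -0.27 for Fdps (limma adjusted p = 0.111 and 0.0928). Pmvk and Mvd, the kinase and the decarboxylase that finish isopentenyl diphosphate, fell in silenced cells (-0.73 ± 0.16 and -0.83 ± 0.19) and had -0.14 ± 0.16 and -0.23 ± 0.19 in control cells. As deposited, Mvk and Idi1 stayed within 0.13 of 0 in both kinds of cell on the log2 scale.

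Of the sterol genes, 8 of 11 fell in silenced cells (35.5% of all tested genes) and 5 of 11 in control cells (32.9%). The count in control cells is not far from that share. The lowest of the sterol genes was Dhcr7 (chr7:143823145-143848410, plus strand, GRCm38), the reductase that makes cholesterol from 7-dehydrocholesterol. It read 0.895, 1.0 and 0.713 FPKM with LPS and 5.79, 5.27 and 5.67 FPKM without in silenced libraries. In control libraries it read 0.754, 1.1 and 0.751 FPKM with LPS and 5.7, 4.97 and 5.19 FPKM without. LPS left 15.6% of the level in silenced and 16.4% in control cells, with wide gaps between the groups. On the log2(FPKM + 1) scale, which understates changes of low genes, the fold change was -1.82 ± 0.11 in silenced (limma adjusted p = 2.51e-07) and -1.75 ± 0.11 in control cells (limma adjusted p = 3.90e-07). Lss, which closes squalene epoxide into lanosterol, read 5.78, 5.65 and 4.13 FPKM with LPS and 8.65, 8.56 and 9.28 FPKM without in silenced libraries. In control libraries Lss read 5.15, 5.47 and 3.77 FPKM with LPS and 8.27, 8.82 and 7.79 FPKM without. LPS libraries were lower throughout, at -0.68 ± 0.14 in silenced (limma adjusted p = 0.00149) and -0.69 ± 0.14 in control cells (limma adjusted p = 0.00138).

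The other sterol genes moved less than Dhcr7, though in silenced cells Sqle fell by more than Lss. Sqle, Nsdhl and Sc5d fell by 0.73, 0.31 and 0.64 in silenced cells and by 0.33, 0.47 and 0.65 in control cells on the log2 scale. Cyp51, Msmo1 and Fdft1 fell by 0.64, 0.36 and 0.45 in silenced cells, and had -0.18 ± 0.10, -0.04 ± 0.07 and -0.18 ± 0.14 in control cells, not called. Hsd17b7, Ebp and Tm7sf2, which act in C4 demethylation, double bond isomerisation and C14 reduction, were not called in either. Several of these calls depend on the scaling. Under median-ratio scaling the changes in silenced cells were -0.09 for Msmo1, -0.19 for Fdft1, -0.04 for Nsdhl and -0.39 for Sc5d, with limma adjusted p-values of 0.383, 0.304, 0.735 and 0.157 in that order. In control cells they were -0.11 for Sqle and -0.45 for Sc5d (limma adjusted p = 0.441 and 0.104). Some calls also rest on single libraries. In silenced cells that of Fdft1 was lost without silenced library 2 or 3 without LPS or 2 with LPS (limma adjusted p 0.0551 to 0.0813). There the call of Nsdhl was lost without silenced library 2 without LPS or 2 or 3 with LPS (0.0530 to 0.0780 by limma). The call of Sc5d in silenced cells was lost without silenced library 1 or 3 without LPS or 2 with LPS (0.0507 to 0.0580 by limma). In control cells the call of Sqle was lost without control library 3 without LPS or 2 with LPS (0.0717 and 0.0819 by limma, the larger for library 3), and that of Sc5d without control library 3 without LPS (0.0613 by limma).

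All 5 genes of uptake control, transport and esterification were called in both kinds of cell, 4 lower and 1 higher. Over all tested genes 35.5% fell and 13.0% rose in silenced cells, and 32.9% fell and 15.3% rose in control cells. Mylip read 6.57, 7.45 and 6.01 FPKM with LPS and 12.7, 13.6 and 16.2 FPKM without in silenced libraries. In control libraries Mylip read 6.5, 6.64 and 5.45 FPKM with LPS and 15.4, 11.7 and 15.9 FPKM without. The LPS libraries lay at less than the lowest library without LPS in both kinds of cell, and the log2 fold change was -0.98 ± 0.13 in silenced (limma adjusted p = 9.98e-05) and -1.09 ± 0.13 in control cells (limma adjusted p = 4.97e-05). Stard4, given by library above, fell to 47.1% of its level without LPS in silenced and 44.6% in control cells, at -1.0 ± 0.10 (limma adjusted p = 1.02e-05) and -1.04 ± 0.10 (limma adjusted p = 7.87e-06). Soat1 fell by 0.67 in silenced and by 0.47 in control cells on the log2 scale, and the call in control cells was lost under median-ratio scaling (-0.25, limma adjusted p = 0.0900).

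The 2 Niemann-Pick genes went in opposite directions. Npc1, the membrane protein that exports cholesterol from lysosomes, read 5.63, 5.28 and 5.03 FPKM with LPS and 11.6, 9.37 and 10.4 FPKM without in silenced libraries. In control libraries Npc1 read 6.23, 6.17 and 6.46 FPKM with LPS and 11.3, 9.77 and 12.5 FPKM without. The groups did not overlap, at -0.86 ± 0.10 in silenced (limma adjusted p = 3.98e-05) and -0.74 ± 0.10 in control cells (limma adjusted p = 0.000129). Npc2 (chr12:84754562-84773152, minus strand, GRCm38), the soluble lysosomal protein that hands cholesterol to NPC1, read 44.1, 43.5 and 42 FPKM with LPS and 25.3, 26.4 and 20.2 FPKM without in silenced libraries. In control libraries Npc2 read 41.5, 35.4 and 39.7 FPKM with LPS and 24.4, 20.1 and 25.2 FPKM without. Every LPS library was above every library without LPS, at 0.83 ± 0.11 in silenced (limma adjusted p = 0.000106) and 0.72 ± 0.11 in control cells (limma adjusted p = 0.000317). Npc1 overlaps Rmc1 on the opposite strand.

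Whether LPS changed these genes differently in silenced and control cells was tested as the difference between both LPS changes. For 0 of 28 genes was this difference called by limma at an adjusted p under 0.05, where 0.0612% of all tested genes were called. At an unadjusted p under 0.05 the LPS change was more negative in silenced cells for 5 of 28 genes (Cyp51, Msmo1, Sqle, Pmvk and Mvd), against 7.20% of all genes, and more positive for 0. The median difference was -0.15 over the 28 genes and -0.03 over all genes on the log2 scale, and 20 of 28 differences were negative, against 54.8% of all genes. The difference was -0.47 ± 0.15 for Cyp51 (95% interval -0.78 to -0.15), -0.31 ± 0.10 for Msmo1, -0.40 ± 0.15 for Sqle and -0.58 ± 0.22 for Pmvk, and limma's adjusted p was 0.30, 0.325, 0.365 and 0.373 in that order. Pmvk read 5.75, 4.69 and 3.39 FPKM with LPS and 8.62, 8.43 and 7.4 FPKM without in silenced libraries. In control libraries Pmvk read 7.3, 5.48 and 5.04 FPKM with LPS and 6.94, 6.24 and 6.6 FPKM without. The silenced libraries of Pmvk separate by LPS and the control libraries overlap. The difference uses the same libraries as the comparisons it sets against each other, so it adds no independent evidence to them. The 7 calls made in silenced cells alone are thus not shown to differ between silenced and control cells.

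The pattern by library was alike within groups. The summed level of the 28 genes was 346, 341 and 343 FPKM in silenced and 340, 333 and 331 FPKM in control libraries after LPS. Without LPS it was 468, 468 and 490 FPKM in silenced and 415, 395 and 431 FPKM in control libraries. Silenced libraries had the higher sum in both settings, but after LPS they also had the higher total FPKM on average. As a share of the library's total FPKM, the 28 genes took 0.103%, 0.0971% and 0.0971% in silenced and 0.102%, 0.0968% and 0.0996% in control libraries after LPS. The mean shares were 0.0991% in silenced and 0.0995% in control cells, so the direction turned and the groups overlapped. Without LPS the shares were 0.141%, 0.139% and 0.151% in silenced and 0.125%, 0.118% and 0.134% in control libraries, still without overlap. The median over the 11 sterol genes, as log2 difference from the mean of control cells without LPS, was 0.24, 0.20 and 0.28 in the silenced libraries without LPS and -0.00, -0.05 and -0.02 in the control libraries. Over the 7 mevalonate genes it was 0.35, 0.24 and 0.22 in silenced and 0.06, 0.01 and -0.07 in control libraries without LPS. No silenced library overlapped a control library in either segment, whereas those of the 5 regulators did.

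**Figure D5:**
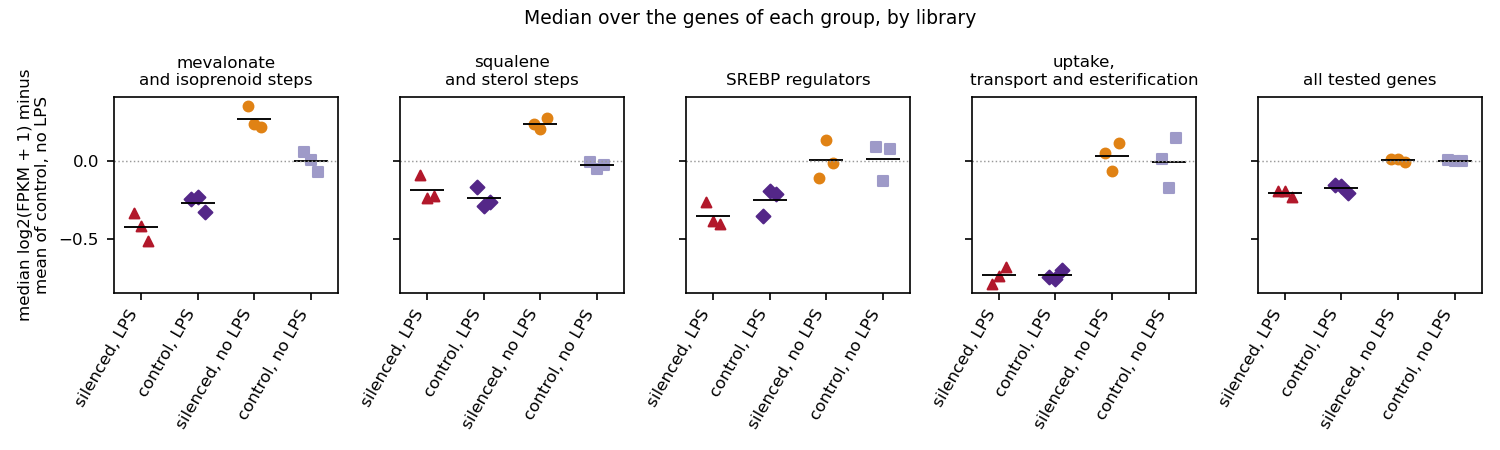
Median over the genes of each role, and over all 13078 tested genes, of log2(FPKM + 1) minus the mean of control cells without LPS. Each point is 1 library and each bar the mean of 3; the orange points of silenced cells without LPS stand above the control points for both enzyme segments and not for regulators, transport genes or all genes.

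Genes around the pathway, 59 tested in 6 further lists, gave 0 limma calls for silencing without LPS (3 higher and 3 lower at an unadjusted p under 0.05, against 6.57% higher and 5.40% lower over all genes). After LPS they gave 0 calls (1 higher and 6 lower, against 4.72% and 8.26%), and for the difference between LPS changes 0 (0 higher and 4 lower, against 4.11% and 7.20%). These counts are near the shares over all genes. With LPS the lists are to be read against the 35.5% of all tested genes that fell and 13.0% that rose in silenced cells, and the 32.9% that fell and 15.3% that rose in control cells. Of 14 fatty acid genes known as SREBP-1 targets, 10 fell in silenced and 10 in control cells, and 0 rose. Scd2, a stearoyl-CoA desaturase, read 63.1, 67.7 and 50.7 FPKM with LPS and 231, 228 and 297 FPKM without in silenced libraries. In control libraries Scd2 read 75.5, 78.7 and 57.8 FPKM with LPS and 249.9, 243 and 294 FPKM without. It had log2 fold changes of -2.04 ± 0.15 in silenced and -1.88 ± 0.15 in control cells, without overlap. Lpin1, a phosphatidate phosphatase, fell to 0.32 ± 0.135 FPKM with LPS, against 2.88 ± 0.367 FPKM without, in silenced cells. In control cells Lpin1 fell to 0.236 ± 0.0777 FPKM with LPS, against 2.9 ± 0.362 FPKM without. Under median-ratio scaling 7 of the 14 fell in silenced and 8 in control cells, and Acly changed sign.

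Genes of the machinery that handles SREBP were called at shares near or below those of all genes. Of 9 tested genes of SREBP processing and INSIG turnover, 2 fell and 1 rose in silenced cells, and 3 fell and 0 rose in control cells. Erlin1, a partner in INSIG and sterol-regulated protein turnover, fell by 0.83 in silenced and by 0.77 in control cells on the log2 scale. Mbtps1, the Golgi protease that makes the initial cut in SREBP, fell by 0.69 in silenced and by 0.66 in control cells. Both fell under all 3 scalings too. Of 8 further cholesterol enzymes and electron donors, 4 fell and 0 rose in silenced cells, and 4 fell and 1 rose (Por) in control cells; under median-ratio scaling 2 fell in each, and Acat1 and Cyb5b changed sign. Lbr, which shares the C14 reductase activity of Tm7sf2, was among them at -1.49 ± 0.13 in silenced and -1.33 ± 0.13 in control cells. Por, the electron donor of Cyp51 and Sqle, read 45.6, 46.3 and 39.3 FPKM in silenced and 35.2, 34.7 and 33 FPKM in control libraries without LPS. Its silenced libraries were higher without overlap, at a log2 fold change of 0.34 ± 0.08 and a limma adjusted p of 0.152. Por was not typical of these 8 genes. In that comparison 4 had a positive and 4 a negative fold change, with a median of 0.06 on the log2 scale. Acat1 averaged 54.2 FPKM in silenced and 58 FPKM in control cells, and Lbr 25.6 FPKM in silenced and 26.5 FPKM in control cells.

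Sterol transport genes were called with LPS in larger numbers than genes of the isoprenoid branches. Of 9 tested sterol transport genes, 6 fell and 2 rose in silenced cells, and 6 fell and 3 rose in control cells. Osbp, which exchanges cholesterol for phosphoinositide at membrane contacts, fell by 0.91 in silenced and by 1.03 in control cells on the log2 scale. Osbpl2, a related carrier, fell by 1.11 in silenced and by 0.72 in control cells. Gramd1b, which takes cholesterol from the plasma membrane to the endoplasmic reticulum, had 0.70 ± 0.33 in silenced cells, not called, and rose in control cells (0.89 ± 0.33, limma adjusted p = 0.0454), a call lost when libraries were rescaled to a common sum. Of 6 tested genes of oxysterol formation, LXR and efflux, 2 rose and 1 fell in each kind of cell. Those that rose were Nr1h3 and Abca1 in silenced and Abca1 and Lpcat3 in control cells. Abca1, a sterol exporter, rose to 12.3 ± 2.35 FPKM with LPS, against 5.32 ± 0.712 FPKM without, in silenced cells. In control cells Abca1 rose to 10.2 ± 0.416 FPKM with LPS, against 6.3 ± 1.47 FPKM without. The gene that fell was Abcg1, another exporter, at -0.83 ± 0.17 in silenced and -0.86 ± 0.17 in control cells. The Nr1h3 call was lost when libraries were rescaled to a common sum. Ch25h, which makes 25-hydroxycholesterol and did not pass the filter on low values, read 0.357, 0.176 and 0.861 FPKM in silenced and 0.389, 0.469 and 0.176 FPKM in control libraries with LPS, and each of the 6 libraries without LPS lists it at 0. Of 13 genes of dolichol, ubiquinone and prenylation, 2 fell in silenced (Dolk and Icmt) and 1 in control cells (Icmt). Icmt, the methyltransferase that completes prenylated proteins, had -0.42 ± 0.10 in silenced and -0.54 ± 0.10 in control cells, and its call in silenced cells was lost under median-ratio scaling (-0.17, limma adjusted p = 0.162). Under median-ratio scaling 0 of the 13 fell and 4 rose in silenced cells, and 1 fell and 3 rose in control cells.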

How the data were processed

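Gene FPKM for 12 libraries was deposited by the authors as 1 table of 53801 Ensembl gene records. HISAT2, StringTie and GRCm38 appear in the submitters' processing notes without versions or roles, and the labels' protocols call the libraries strand-specific. The sources used here give neither the annotation release, nor the strand setting, nor how multi-mapped reads were handled. FPKM is not a count, and low values were not whole multiples of a read's worth (at most 9.99% within 1%), so no count test was run.

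The 28 genes, the other lists and the tests were chosen with earlier results of these data known. The genes described in full were the 4 with the smallest p in each silencing comparison and in the difference between LPS changes, and the 8 with the largest fold change among LPS calls in control cells; further values were added for context after they were seen. The 13078 genes that reached 1 FPKM in 3 or more of the 12 libraries were fitted on log2(FPKM + 1) with limma 3.58.1 in R 4.3.3, 1 mean per group over all libraries, an intensity trend, two-sided tests and Benjamini-Hochberg adjustment at 0.05. The log2(FPKM + 1) scale understates changes of low genes. The code was tested on simulated data. Alternatives were another pseudocount, filter, scaling, trend and set of libraries, depth, a replicate block and leaving out each library. Coordinates are from GENCODE M21, and promoter sequences from RefSeq, with stretches in annotated exons removed before printing. Of the other lists, Faxdc2 was not matched. Exons of Fdps, Tm7sf2 and Srebf1 overlap other genes on the same strand, and those of Srebf1, Hmgcs1, Idi1, Lss and Scap on the opposite strand.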

Additional observations from a re-analysis of the deposited data

How the results depend on the processing

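Across 22 alternatives, 12 of them leaving out 1 library, the number of genes called for LPS in silenced cells ranged between 17 and 22 (18 to 22 leaving out 1 library), and in control cells between 10 and 16 (13 to 15 leaving out 1 library). No called value changed sign. After LPS silencing gave 0 calls under every alternative run, as did the difference between LPS changes, which could not be computed from only the groups compared. For silencing without LPS the count was 0 to 1 leaving out 1 library and 1 with a replicate block, in each case Cyp51 (limma adjusted p 0.0490 without control library 3 and 0.0341 with the replicate block). The replicate numbers do not pair the samples: same-numbered libraries deviated together at correlations of -0.03 to 0.19, with 3 of 18 over 0.1. The block gave 22 calls for LPS in silenced cells and 16 in control cells. For silencing it gave 1 call without LPS and 0 after LPS, and for the difference between LPS changes 0. Over all genes it gave 48 calls for silencing without LPS against 28 without the block. With estimated depth as a covariate the members called were 20 for LPS in silenced and 14 in control cells, without Scap in both and without Nsdhl in silenced cells. For silencing all-gene counts moved more than 1.5 times: without LPS to 6 from only the groups compared, 10 without the intensity trend and 9 with depth, and after LPS to 0, 50 and 18 in that order, and to 38 with quantile normalization, against 94. Leaving out 1 library gave 3 to 40 such calls without LPS and 10 to 96 after it. For the difference between LPS changes all-gene counts were 0 to 20, against 8.

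The median over the 28 genes for silencing without LPS stayed between 0.16 and 0.27, and after LPS between -0.01 and 0.06. Dhcr7 drops out when FPKM of at least 1 is asked in all 12 libraries. Depth is known only roughly, and 3 libraries a group limit every comparison.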
